A study of Homo sapiens with 6 samples.

Results

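Repeat-annotated clusters are binding sites that the deposited tables of this PAR-CLIP experiment place in an interspersed or simple repeat of the human genome. They were taken as every row of the cluster tables of 5 libraries whose location entry was "repeat", which gave 189365 of 1717084 clusters. PAR-CLIP supplies cells with the nucleoside analog 4-thiouridine (4SU), uses UV light to crosslink the labelled RNA to its proteins, and marks crosslinked positions by T-to-C changes in the sequenced reads. All libraries came from HEK293, a widely used cell line of human embryonic kidney origin, and from lysates digested with RNase T1, an enzyme that cuts after G. The background libraries G20, G35 and G45 came from cells with inducible GFP that carried a FLAG tag, a protein without an RNA-binding role, after FLAG M2 immunoprecipitation, and were cut from the gel near 20, 35 and 45 kDa. The HuR libraries were 2 replicates from cells with inducible FLAG-tagged HuR, purified with the same antibody. A further library, Total, was made from lysate of 4SU-fed and crosslinked cells without immunoprecipitation and after removal of rRNA. Each slice and Total was a single library, and nothing states whether the HuR replicates came from separate cultures, so that p-values measure only the spread between these libraries, which may be technical.

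Repeats make up a large part of the human genome and of introns. L1 elements are retrotransposons that copy themselves through RNA, Alu elements are short primate copies that depend on the L1 machinery, and L2 and MIR elements are their much older, inactive counterparts. LTR elements are remnants of retroviruses, and DNA transposons once moved by excision. HuR, encoded by ELAVL1, is an RNA-binding protein known for U-rich and AU-rich sites in introns and 3' UTRs, where it stabilizes transcripts and affects splicing.

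The libraries held 6187300 to 38644636 reads at sites with any read, which the tables name groups, and 38817 to 1513157 clusters. A cluster had 5 or more reads in every table. The table of HuR replicate 1 held only clusters with 2 or more conversion locations, whereas the other tables also held clusters with 1, so cluster numbers of the HuR replicates cannot be set against each other directly. Repeat clusters numbered 4298 in G20, 10364 in G35, 9136 in G45, 2452 in HuR replicate 1 and 163115 in HuR replicate 2.

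The sequences below are of the regions that had repeat clusters on the same strand in all 5 libraries with the highest lowest level, and are shown because they carried the strongest signal common to background and HuR. They are written 5' to 3' on the strand of the cluster, from the deposited tables (build hg19), with T in capitals, since only T can show a conversion. The L1MA7 site lies at chr7:68669219-68669241 (+), the MIRc site at chr2:45127140-45127160 (-), the L3 site at chr1:210739239-210739259 (+), the L1PA15 site at chr9:30880715-30880738 (-) and the L1MA3 site at chr3:131401789-131401809 (-). The L3 site was in an intron of HHAT and the L1MA3 site in an intron of CPNE4, both on the strand of the gene. The L1MA7 site was opposite to the noncoding gene ENSG00000225718, and the other two overlapped no annotated gene.
L1MA7: TTacTgTagcTTTgTaTTggaTc
MIRc: aaTggTggaaTTggTagacac
L3 in HHAT: TgTgggTgTagcTcaggggTc
L1PA15: gTaTagcaagTTggTaccaTTccT
L1MA3 in CPNE4: gagTgaacgTTggTggTaggc

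A second set had repeat clusters in both HuR replicates and no read in any slice on the same strand, and is shown for contrast. All of them lay in introns on the strand of the host gene. The L2a site was at chr10:126457367-126457403 (-) in EEF1AKMT2, the MIRb site at chr3:56600087-56600139 (+) in CCDC66, the Charlie5 site, a DNA transposon, at chr1:65529534-65529586 (-) in JAK1, and the L2b site at chr12:110840016-110840065 (-) in ANAPC7. The L2a and L2b sites also overlapped a second annotated gene on the same strand.
L2a in EEF1AKMT2: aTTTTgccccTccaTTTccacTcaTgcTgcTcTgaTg
MIRb in CCDC66: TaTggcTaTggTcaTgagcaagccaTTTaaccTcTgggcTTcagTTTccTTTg
Charlie5 in JAK1: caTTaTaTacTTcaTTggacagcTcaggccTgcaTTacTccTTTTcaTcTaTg
L2b in ANAPC7: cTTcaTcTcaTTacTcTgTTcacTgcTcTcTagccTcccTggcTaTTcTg

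A further set had repeat clusters in all 3 slices and no read in either HuR replicate. The AluJb site was at chr4:103941991-103942008 (-) in an intron of SLC9B2, and the MIRc site at chr15:66246347-66246365 (-) in an intron of MEGF11.
AluJb in SLC9B2: gTTcaagTccTccTgggc
MIRc in MEGF11: acagTggaTgTgaaaccgc

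Clusters labelled as repeats were a minor class in every library, and by number of clusters a smaller one with HuR than in the background. They were 11.1% of the clusters of G20 (95% Wilson interval 10.8 to 11.4). The share was 15.2% in G35 (15.0 to 15.5), and G45 had 15.8% (15.5 to 16.1). In the HuR libraries they were 6.23% (6.0 to 6.47) in replicate 1 and 10.8% (10.7 to 10.8) in replicate 2. Every slice was above both HuR replicates, by 5.54 percentage points between the group means (HuR 8.51% ± 3.22 SD, n = 2; slices 14.0%, n = 3). An exact two-sided permutation test over the libraries gave p = 0.2, the smallest value that 3 libraries against 2 allow. Such a design cannot reach 0.05, and after Benjamini-Hochberg adjustment over the 14 tests made the smallest p was 0.28. Leaving out HuR replicate 1 gave -3.26 percentage points and leaving out replicate 2 gave -7.81. G20 lay closer to HuR replicate 2 than to the other slices. Intervals cover counting error only, because reads were not tagged as molecules.

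The label was checked against the Total table, which names a repeat class for its clusters in place of a gene region. Of the repeat clusters that overlapped a Total cluster on the same strand, between 97.8% and 99.7% carried a repeat class there, compared with 0.907% to 10.1% of other clusters. The class was the same in 91.4% to 98.7% of them. The repeat clusters that overlapped a Total cluster were 361 of 4298 in G20, 385 of 10364 in G35 and 358 of 9136 in G45. With HuR they were 544 of 2452 and 5779 of 163115. Families within a class, such as L1 and L2, could not be checked. For Alu, the annotation also mostly followed the strand of the element, which was not examined for other families. The letters TAATCCCAG, part of the Alu consensus, occurred alone within 300 bases of 53.7% to 58.5% of the clusters annotated as Alu, and the reverse complement CTGGGATTA alone near 2.63% to 4.30% of them. Near intron clusters the reverse complement was the more frequent, at 6.0%, 9.0% and 8.30% in G20, G35 and G45 and at 23.1% and 12.9% in the HuR replicates, with the first letters alone near 2.99% to 4.37%. In HuR replicate 1, 5277 intron clusters had the reverse complement alone nearby, against 2452 repeat clusters in all. The shares of repeats above thus count labelled clusters only, and sites opposite to an element may carry another label. The same limit holds where repeats are compared with intron clusters. A match of these letters is a description of the sequence and not evidence of an element.

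The kind of repeat differed between HuR and the background. L1 and LTR elements each made up over 20% of the repeat clusters of every slice and less with HuR, while L2 elements and DNA transposons were the larger with HuR. L1 clusters were 25.1% of the repeat clusters in G20, 25.1% in G35 and 25.6% in G45, against 10.6% and 16.3% in HuR replicates 1 and 2. LTR clusters were 22.2%, 21.6% and 23.1% in the slices and 11.8% and 11.1% with HuR. The slices thus differed from one another by less than 2 percentage points in both families, and all of them exceeded both HuR replicates. L2 clusters went the other way, with 8.40%, 10.7% and 10.7% in the slices and 25.2% and 18.9% in the HuR replicates, a mean ratio of 2.22. DNA transposons were 8.82%, 11% and 10.2% in the slices and 18.6% and 15.6% with HuR. The groups did not overlap in any of these 4 families, and each gave an exact permutation p of 0.2 and an adjusted p of 0.28. Among clusters with 25 or more reads the L2 difference was 4.88 percentage points in place of 12.1, and the groups overlapped for LTR (-8.07, exact permutation p = 0.4). Among clusters without a gene on either strand, L2 differed by 5.06, DNA by 3.21 and LTR by -2.57, the last with overlap (exact permutation p = 0.8).

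**Figure D1:**
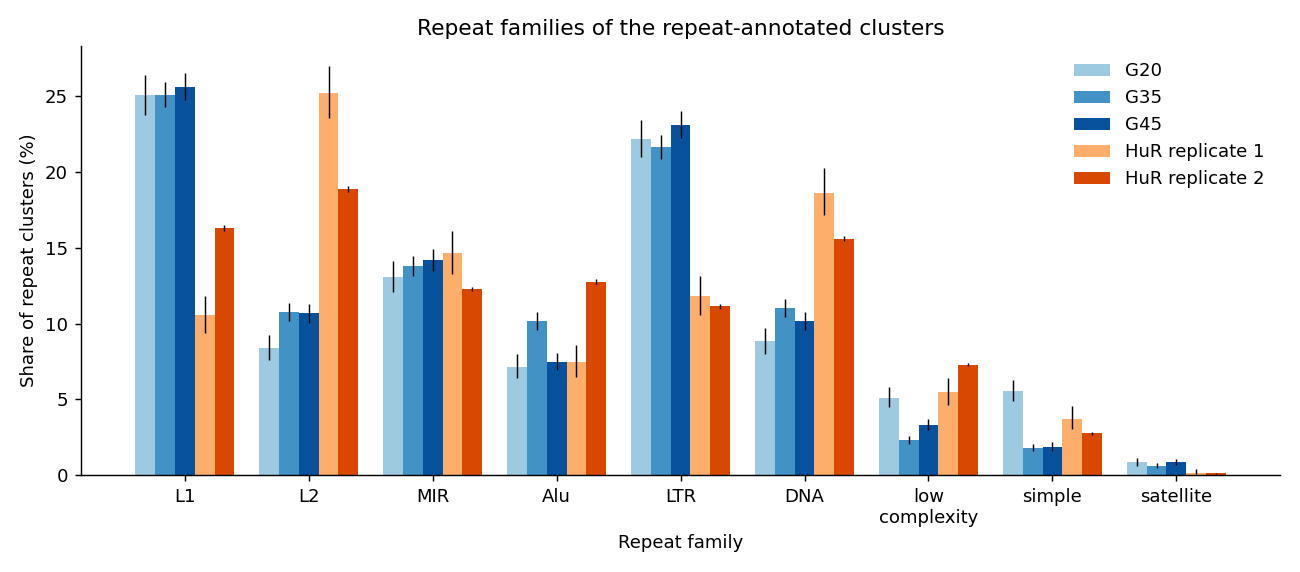
Share of each repeat family among the repeat clusters of each library, in percent, with 95% Wilson intervals as error bars. The slices (blue) are higher than both HuR replicates (orange) for L1 and LTR and lower for L2 and DNA, while MIR and Alu overlap.

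MIR and Alu were less divided. MIR clusters made up 13.1% to 14.2% of the repeat clusters in the slices and 14.6% and 12.3% with HuR, and Alu clusters 7.17% to 10.2% in the slices and 7.46% and 12.7% with HuR. Both families overlapped between the groups. LINE elements as a class, with L1, L2 and smaller groups, were 35.7% to 38.3% of the repeat clusters of the slices and 37% and 37.5% with HuR (difference -0.09 percentage points), so that L1 and L2 differed in opposite directions within a class of similar size. Satellite repeats, the tandem arrays of centromeres, lay between 0.627% and 0.843% in the slices and were 0.163% and 0.114% with HuR, where replicate 1 held only 4 such clusters. Low-complexity repeats were 5.10%, 2.31% and 3.29% in the slices and 5.46% and 7.29% with HuR. Neither of these 2 small classes overlapped between the groups (exact permutation p = 0.2 for each, not among the 14 adjusted tests). SINE elements other than Alu and MIR, with 4 clusters in G20, did not overlap either. They were 0.0931% to 0.153% in the slices and 0.367% and 0.188% with HuR. Other LINE elements, simple repeats and the remaining repeats overlapped. In Total, 43.4% of the clusters with a class were LINE, 22.4% SINE, 14.0% DNA and 10.1% LTR. Total divides its classes no further, so L1 and L2 could not be separated there.

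By single element, MIRb was the most frequent in every slice, at 4.96%, 5.60% and 5.58% of the repeat clusters. L2a was first in both HuR replicates, at 10.3% and 7.95%, against 3.14%, 4.23% and 4.06% in the slices. L2c was at 7.18% and 5.42% with HuR, compared with 2.51% to 3.05% in the slices. Counted by reads, L1 elements took 60% of the repeat reads in G20, 42.6% in G35 and 37.8% in G45, against 23.7% and 18.3% in the HuR replicates. L2 elements took 4.92%, 8.87% and 9.14% in the slices and 12.4% and 16.6% with HuR, so that both families kept the order they had by clusters. LTR elements did not, with 9.22%, 15.5% and 16.6% in the slices and 25.7% and 10.2% with HuR. A single L1PREC2 cluster held 201165 of the repeat reads of G20, and a single LTR1D cluster 14861 of those of HuR replicate 1.

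The T content of the repeat clusters was higher with HuR, and it was higher within each of the large families. It averaged 27.4% in G20, 29.5% in G35 and 30.4% in G45 (SD over clusters 10.6, 10.8 and 11.4), and 37.6% and 37.9% in the HuR replicates (SD over clusters 11.9 and 13.6). The difference between the group means was 8.67 percentage points, much larger than the spread of the HuR replicates (SD 0.176, n = 2), with p = 0.2 in the exact permutation test and an adjusted p of 0.28. L2 clusters had the highest T content of the 6 large families in every library, from 31.8% to 33.1% in the slices and at 41.1% and 41.2% with HuR. L1 clusters had 26.6% to 27.5% in the slices and 34.6% and 35.5% with HuR. Alu clusters had the lowest, from 24.0% to 25.2% in the slices and at 29.0% and 26.4% with HuR. In these families, and in MIR, LTR and DNA, every HuR replicate was above every slice.

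**Figure D2:**
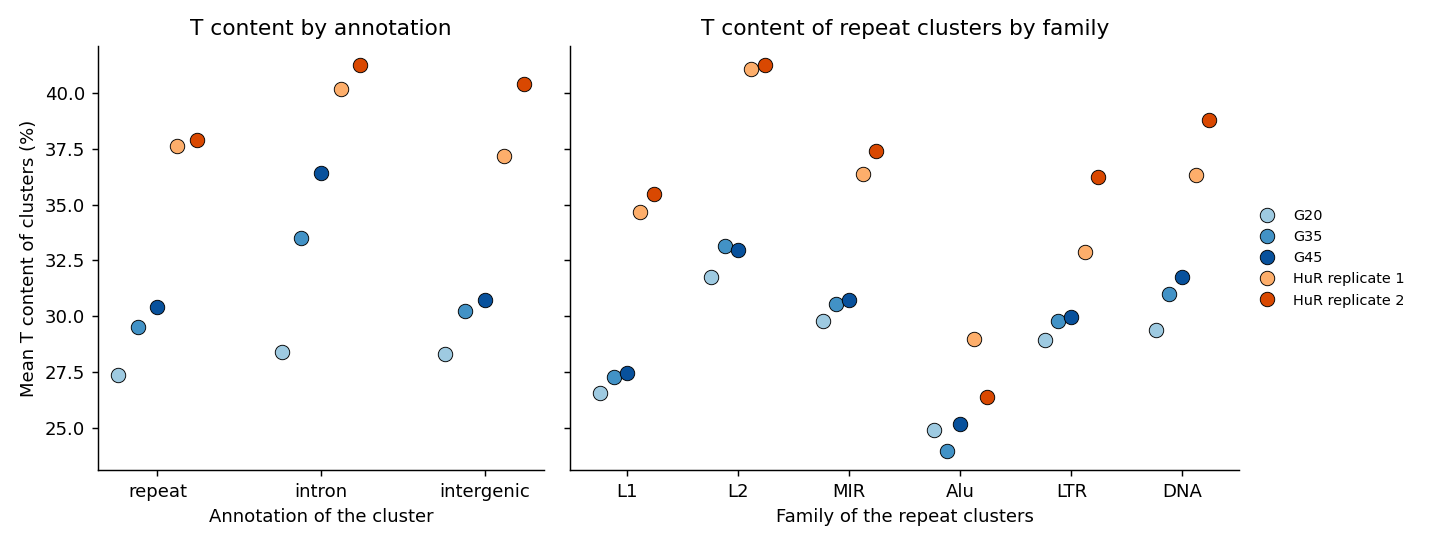
Mean T content of clusters in percent, by annotation (left) and for the repeat clusters by family (right), 1 point for each library. Both HuR replicates (orange) lie above all slices (blue) for repeat, intron and intergenic clusters and in each of the 6 families. Repeat clusters lie below intron clusters in each library.

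The A content showed no such order. It was 23.9%, 25.6% and 25.3% in the slices and 22.1% and 27.0% in HuR replicates 1 and 2, so the slices lay between the replicates (difference -0.38 percentage points, exact permutation p = 0.8). L1 clusters were the most A-rich of the large families, with 28.7% to 30.7% in the slices and 24.4% and 31.8% with HuR. The G content was 31.2%, 27.3% and 26.6% in the slices and 18.2% and 16.4% with HuR. Repeat clusters with HuR were thus richer in T and poorer in G than those of the slices, with no common direction for A. The G content of all other clusters was lower with HuR too, at a mean of 14.8% against 28.8% in the slices.

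Within a library, repeat clusters were poorer in T than intron clusters, with differences of -1.04 percentage points in G20, -3.95 in G35, -6.0 in G45, -2.55 in HuR replicate 1 and -3.35 in HuR replicate 2. The direction held in 5 of 5 libraries, and the exact paired permutation test gave p = 0.0625, the smallest value 5 pairs allow. Against all other clusters the mean difference was -1.18 percentage points (exact paired permutation p = 0.3125, adjusted 0.365), and G20 went the other way. Against intergenic clusters it was -0.80 (exact paired permutation p = 0.1875), lower in 4 of 5 libraries. The A content was above that of all other clusters in 4 of 5 libraries, by a mean of 1.25 percentage points (exact paired permutation p = 0.125, adjusted 0.28), with HuR replicate 1 as the exception.

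The letters TTTTT stood in 1.51%, 4.32% and 4.97% of the repeat clusters of G20, G35 and G45 and in 14.2% and 20.5% of those of the HuR replicates. In intron clusters the shares were 3.43%, 13.5% and 17.4% in the slices and 16.9% and 26.4% with HuR, higher in each library. ATTTA, the core of AU-rich elements, was in 1.26% to 3.31% of the slices' repeat clusters and in 7.87% and 11% with HuR. GGAAT ran the opposite way, from 2.74% to 3.00% in the slices and at 1.26% and 1.56% with HuR, as did TGTGTG, at 0.994% to 1.28% and at 0.734% and 0.438%. The run GGGG was in 12.1%, 9.22% and 7.21% of the repeat clusters of the slices and in 6.40% and 6.96% with HuR. These orders also held in all other clusters. Their means with HuR and in the slices were 9.87% and 3.00% for ATTTA and 1.37% and 3.07% for GGAAT. For TGTGTG they were 0.427% and 0.936%, and for GGGG 6.54% and 13.3%. AAAAA gave no order, with 1.42%, 3.13% and 2.33% in the slices and 0.367% and 7.16% with HuR. All were searched on the strand of the cluster only, and overlapping letters count for each.

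Among the 8-mers of the repeat clusters, each cluster counted once, GAGGAGGA and GGCGGCGG led in G20, in 1.19% and 1.07% of the repeat clusters and in 0.791% and 0.420% of other clusters. TTTATTTT led in G35 (1.04%) and in both HuR replicates (2.85% and 3.76%), and TTTTATTT led in G45 (1.55%). In other clusters the shares of TTTATTTT were 1.29% in G35 and 2.61% and 3.68% with HuR, and that of TTTTATTT in G45 was 1.9%. In G20 the low-complexity and simple repeats had a T content of 17.8% and 19.0%, against 43.9% and 33.6% in G35 and 53.5% and 47.0% in HuR replicate 1. In G20 these 2 classes also lay on the strand of a gene in 69.9% and 71.4% of cases.

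Repeat clusters lay on the strand of a gene far more often with HuR than in the background. In the GENCODE annotation, 33.6% of the repeat clusters of G20, 36.1% of G35 and 31.1% of G45 overlapped a gene on their own strand only. With HuR these shares were 72.2% and 69.5%. Clusters opposite to a gene and with none on their own strand were 25.1%, 24.4% and 25.4% in the slices and 8.65% and 8.60% with HuR. Clusters with no gene on either strand were 35.6%, 34.5% and 38.3% in the slices and 12.4% and 15.7% with HuR. In each of these shares the slices and the HuR replicates did not overlap. The same held for all other clusters, so the order was not particular to repeats. There the mean share on the strand of a gene only was 80.4% with HuR and 51.5% in the slices. The mean share opposite to a gene was 4.34% and 18.0%, and that without a gene 8.33% and 23.3%.

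**Figure D3:**
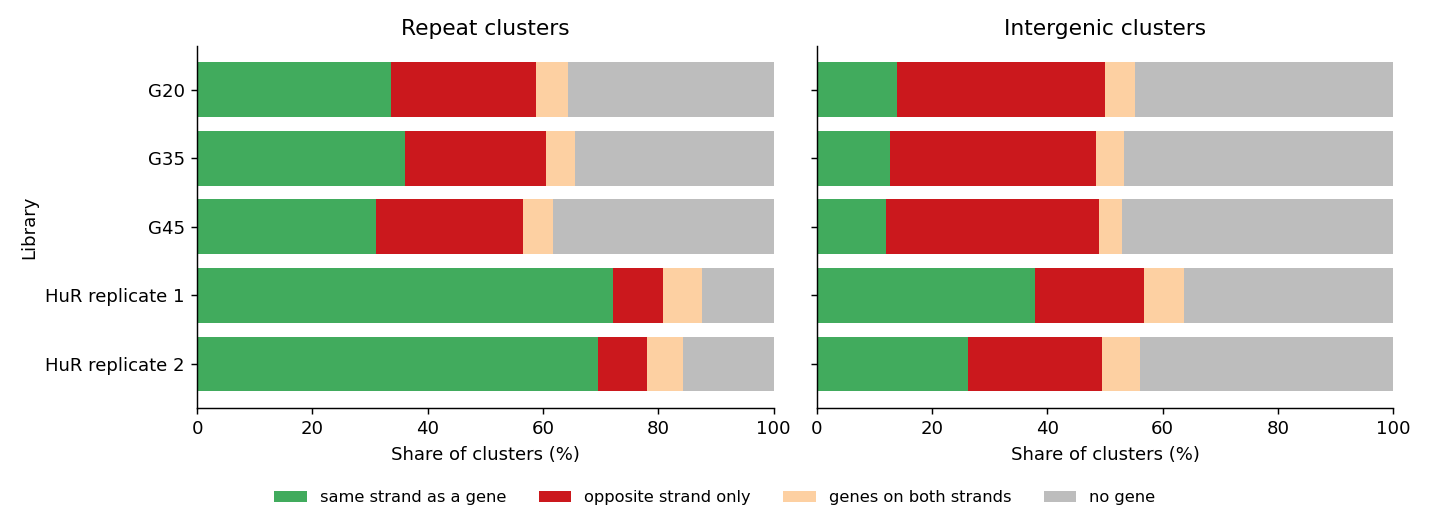
Relation of clusters to GENCODE genes, as stacked shares of the clusters in percent, for repeat (left) and intergenic (right) clusters of each library. In the slices about as many repeat clusters have no gene as lie on the strand of one, while with HuR the clusters on the strand of a gene are 72.2% and 69.5%.

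Among the clusters with a gene on exactly 1 strand, the antisense share was 42.7%, 40.3% and 45.0% in the slices and 10.7% and 11% with HuR. The difference of the group means was -31.8 percentage points (HuR SD 0.222, n = 2), with p = 0.2 by the exact permutation test and an adjusted p of 0.28. In all other clusters the same difference was -21.0 percentage points, also without overlap. The antisense share was lower in both HuR replicates than in every slice for each of L1, L2, MIR, Alu, LTR and DNA. L1 clusters were antisense in 58.9%, 50.3% and 56.7% of cases in the slices and in 31.6% and 16.0% with HuR. L2 clusters were antisense in 47.7%, 40.1% and 41.5% in the slices and in 5.33% and 10.8% with HuR. LTR clusters had 53.6% to 58.9% in the slices and 28.3% and 20.9% with HuR. L1 and LTR clusters were thus the most often antisense of the large families in all libraries. The annotation places intron clusters on the strand of their gene and most antisense sites under intergenic, so a difference in this share between those classes and repeats follows from the labels. Against all other clusters together, repeats were more often antisense in 5 of 5 libraries, by a mean of 12.2 percentage points (exact paired permutation p = 0.0625, adjusted 0.28). The other clusters include those classes, so this test cannot separate the difference from the labels. Only 4.25% to 11.4% of the slices' repeat clusters and 14.8% and 6.55% of those with HuR touched an annotated exon on their strand.

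The families also differed among clusters on the strand of a gene, by less than overall for L1 (-7.22 against -11.8 percentage points) and by slightly more for L2 (13.5 against 12.1). There, L1 made up 16.3%, 18.9% and 18.3% of the slices' repeat clusters and 6.72% and 14.4% with HuR, and L2 made up 7.75%, 11.7% and 12.9% in the slices and 29.1% and 19.4% with HuR. The T content of these sense clusters was 25.4%, 30.3% and 32.9% in the slices and 39.2% and 38.1% with HuR. In HuR replicate 1 the antisense clusters had 31.4% T and the clusters without a gene 32.0%, close to the slices, where antisense clusters had 28.2% to 28.7%. In HuR replicate 2 the antisense clusters had 36.9% T. The HuR replicates were thus farther apart in the T content of their antisense clusters than of their sense clusters. Of the antisense clusters of HuR replicate 1, 77.8% had a read in a slice, against 35.5% of its sense clusters. The same shares in replicate 2 were 14.1% and 9.30%.

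The genes with the most repeat clusters had them mostly on their own strand with HuR and on both strands in G35 and G45. In HuR replicate 1 the leading genes included ERC1, a scaffold protein of vesicle release sites, with 20 sense and 0 antisense clusters, NFIA, a transcription factor, with 10 and 0, HELLS, a chromatin remodeler, with 10 and 0, and ANAPC7, a subunit of the anaphase-promoting complex, with 10 and 0. In HuR replicate 2 they included AUTS2 with 293 sense and 6 antisense, PRKG1, a cGMP-dependent kinase, with 248 and 8, and ADK, adenosine kinase, with 193 and 3. TBC1D5 and FTX, a noncoding RNA, were the exceptions, with 60 sense and 140 antisense clusters and with 72 and 127. Antisense counts of single genes include clusters that lie on the strand of another gene, which were not separated here. In G35 the leading genes were PDE4D, a cAMP phosphodiesterase, with 7 sense and 6 antisense clusters, FAF1 with 8 and 3, SPAG16 with 2 and 7, KAZN with 6 and 2 and ERBB4, a receptor tyrosine kinase, with 5 and 3. In G45 they included RBFOX1, a splicing regulator, with 4 and 6, FHIT with 5 and 4, DAB1 with 5 and 3 and DPP10 with 3 and 5. In G20 SRRM2, a component of the spliceosome, led with 8 and 0, followed by RAD51B, a recombination protein, with 5 and 1. ZNF146 and ZNF565 overlap on opposite strands, so their 7 sense clusters and 8 antisense clusters in G20 cannot be assigned to 1 gene.

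The number of conversions per read did not separate HuR from the background in repeat clusters, while the number per T did. Events per 100 reads were 77.2, 75.8 and 69.3 in the slices and 59.4 and 98.7 in HuR replicates 1 and 2, so the slices lay between the replicates (difference 4.97, exact permutation p = 0.8). The median cluster had 1.00 events per read in each of the 5 libraries. Per 100 T read, repeat clusters had 14.7, 16.0 and 14.9 events in the slices and 12.4 and 11.2 with HuR. On this scale both HuR replicates were below every slice, with a difference of the group means of -3.38, which was not tested. Intron and intergenic clusters had the same order without overlap, so it was not particular to repeats. Their means with HuR and in the slices were 10.9 and 14.8 for intron and 12.6 and 17.5 for intergenic clusters. For all other clusters together the means went the other way, with 10.9 and 9.49. Whether the higher T content with HuR accounts for the lower number per T was not tested. Compared with all other clusters, repeats had more events per 100 reads in 5 of 5 libraries, by a mean of 15.0 (exact paired permutation p = 0.0625, adjusted 0.28). That mean rested on G20, where the difference was 57.1. Without the 10 clusters with the most reads in each library it was 3.92, with the direction in 3 of 5 libraries and neither HuR replicate among them (exact paired permutation p = 0.625). Compared with intron clusters the sign turned to -10.3 events per 100 reads in 5 of 5 libraries.

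In the slices, most clusters with 100 or more reads had events per read near a whole number. Of such repeat clusters, 46.9% of 437 in G20, 48.3% of 601 in G35 and 51.7% of 772 in G45 were within 0.05 of 1 event per read. Another 19.0%, 16.5% and 18.8% had fewer than 0.05, and 4.58%, 6.99% and 4.92% were within 0.05 of 2, the most a retained read can hold. In HuR replicate 1 the same shares of 173 clusters were 23.1%, 22.5% and 12.7%, and in HuR replicate 2 33.7%, 7.40% and 2.74% of 1351, so that most clusters of replicate 2 were not near a whole number. The share near 1 was lower in both HuR replicates than in every slice. The table of replicate 1 lacks clusters with 1 conversion location, which were 70.7% to 75.5% of all repeat clusters of the slices. The shares of replicate 1 are thus not directly comparable, and they were not recomputed with 2 or more locations in every library. Intron clusters of the slices had similar shares near 1, from 44.7% to 46.2%, so the pattern was not particular to repeats. Clusters with hardly a conversion were more frequent in repeats than in introns in 5 of 5 libraries, by a mean of 3.69 percentage points (exact paired permutation p = 0.0625, not among the 14 adjusted tests). Against all other clusters and against intergenic clusters the mean differences were 1.46 and 1.00, each in 4 of 5 libraries (exact paired permutation p = 0.1875 for each).

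**Figure D4:**
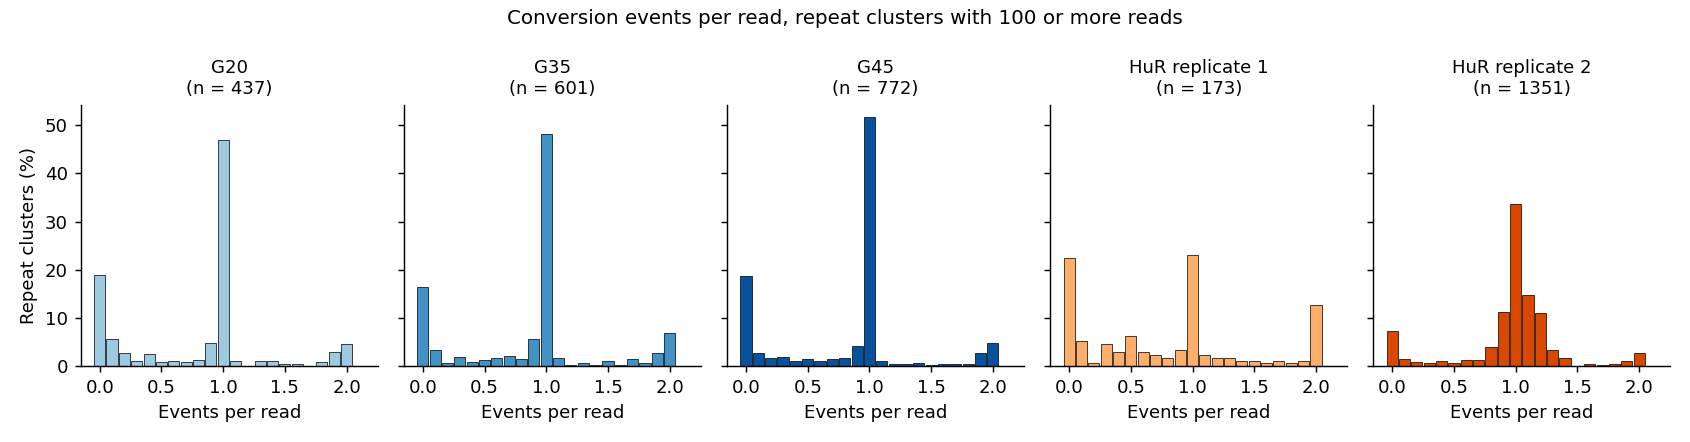
Conversion events per read of the repeat clusters with 100 or more reads, as the percent of clusters in bins of width 0.1, for each library. In the slices the bins at 0 and 1 hold most clusters, and HuR replicate 2 spreads around 1.

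Some of the most heavily read sites had a similar number of conversions per read in every library. The names of these sites rest on where the short reads mapped uniquely in hg19, and whether the reads came from the named repeat copies was not tested. Merging overlapping repeat clusters of the 5 libraries on the same strand gave 176046 regions, of which 330 had repeat clusters in all 5. The L3 site in HHAT held 12064 reads in G20, 17892 in G35, 22042 in G45, 1531 in HuR replicate 1 and 23654 in HuR replicate 2, with 0.985, 1.07, 0.991, 1.02 and 0.989 events per read. The L1MA3 site in CPNE4 held 3639, 12207, 8007, 1024 and 5890 reads and had 2.0 events per read in all 5 libraries. The MIRc site on chromosome 2 held 6974, 15781, 15655, 2059 and 11613 reads, with 0.885 to 0.960 events per read. The L1MA7 site held 7405, 12469, 12977, 2869 and 9200 reads with few conversions, from 0.0782 events per read in G20 to 0.181 in HuR replicate 2. The L1PA15 site had 1.01 to 1.19 events per read in 4 libraries and 0.483 in HuR replicate 1. In Total the L3 and L1MA7 sites had 132 and 46 reads of 35924998, and the MIRc, L1PA15 and L1MA3 sites 3, 1 and 0, at or below the limit that a count of 0 allows. Over the 170 regions with 25 or more reads in all 5 libraries, the events per read differed by less than 0.1 between the highest and the lowest library in 86.

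As reads per 1000000 reads of a library (RPM), the L3 site stood at 312 in G20, 2892 in G35, 2923 in G45, 161 in HuR replicate 1 and 737 in HuR replicate 2. The L1MA3 site stood at 94.2, 1973, 1062, 108 and 183. At all 5 sites G35 and G45 were above both HuR replicates. G20 was below both HuR replicates at 4 of the 5, and between them at the L3 site. The repeat cluster of G20 with the most reads was an L1PREC2 site at chr19:55390044-55390077 (-), opposite to an intron of FCAR. It held 201165 reads in G20, which were 36.1% of the reads in repeat clusters and 0.633% of the reads in all clusters there, and 98 to 12059 in the other libraries, at 1.01 to 1.10 events per read in all 5.

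Other sites with many reads were far higher in 1 HuR replicate than in the other. An LTR1D site at chr21:26046971-26046989 (+) with no gene held 14861 reads in HuR replicate 1, 78 in replicate 2 and 55, 335 and 326 in the slices, with 0.923 to 1.02 events per read. An AluJr site at chr15:79100338-79100354 (-) in an intron of ADAMTS7 held 7468 reads in replicate 1 and 52 in replicate 2. An AluJb site at chrX:46948455-46948475 (+) in an intron of RGN held 81 reads in replicate 1 and 10923 in replicate 2, with 1.62 to 2.0 events per read over the 5 libraries. A MIRb site at chr3:62786645-62786662 (+), opposite to CADPS, held 7356 reads in replicate 1 and 784 in replicate 2 with at most 0.00255 events per read in these replicates. Each of these sites also had background reads, and none was high in both HuR replicates.

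An L1MA8 site at chr1:240912287-240912304 (+) held 16642 reads in G35 with 1 conversion event, and 4544 and 11576 reads in G20 and G45 with 1 and 22 events. It formed no cluster with HuR, although 2157 and 7585 group reads lay there. An L1ME3A site at chr2:134972559-134972576 (-), opposite to MGAT5, held 14238 reads in G45 with 2 events. Absence of a cluster in a library thus did not mean absence of reads.

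**Figure D5:**
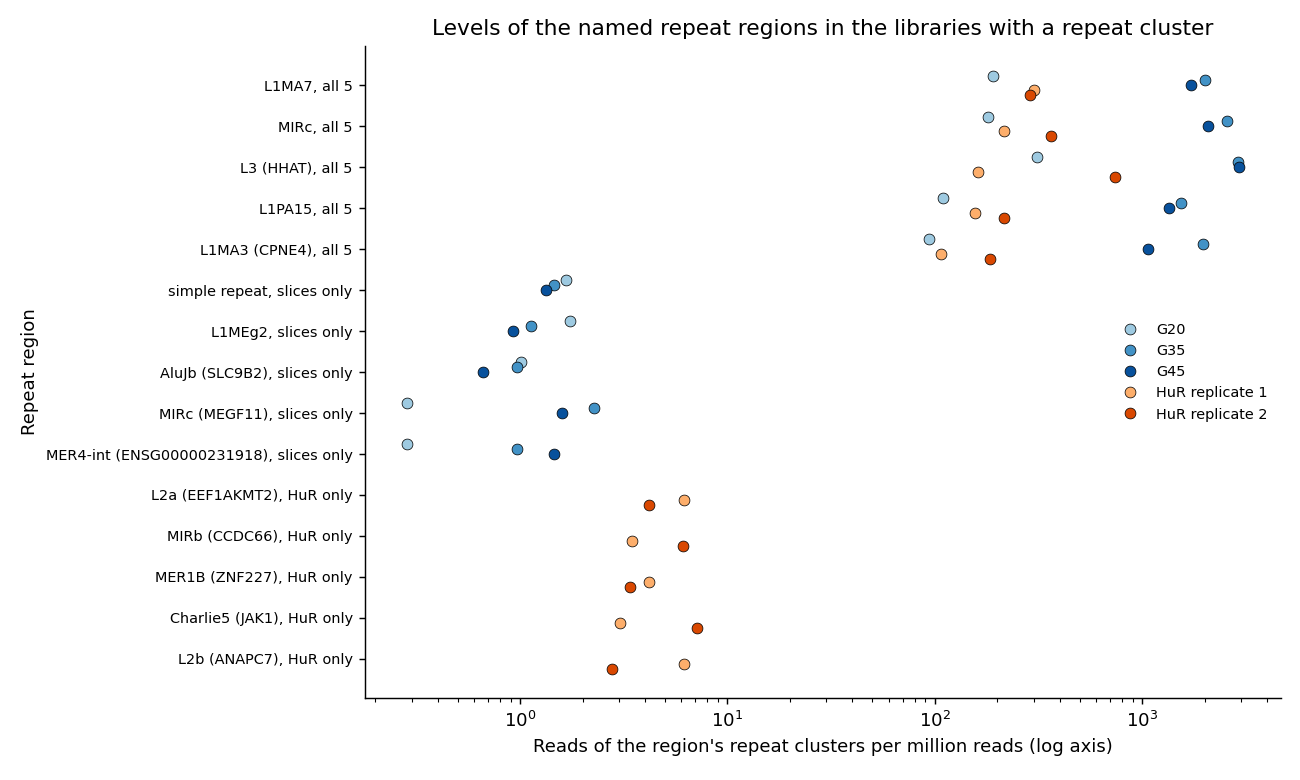
RPM of the named repeat regions in each library, on a log axis, with 1 point for each library that had a repeat cluster there. The regions in all 5 libraries lie between 94.2 and 2923 and the regions found in the slices only or with HuR only lie below 10.

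Levels of the 330 regions common to all 5 libraries were correlated between the slices, with Pearson's r of log RPM of 0.922 to 0.942. HuR replicate 2 gave r of 0.859 to 0.878 with the slices and 0.560 with HuR replicate 1, which gave 0.610 to 0.682 with the slices. These are descriptions across regions, which are not independent replicates and were chosen for having a cluster in every library.

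Regions of both HuR replicates often had no background read, while regions of all slices seldom lacked a HuR read. Of the 1865 regions with repeat clusters in both HuR replicates, 940 (50.4%) had no read in any slice. Of the 2074 regions with repeat clusters in all 3 slices, 32 (1.54%) had no read in either HuR replicate. Regions of other clusters gave similar contrasts, with 18235 of 30201 (60.4%) and 129 of 10473 (1.23%). Regions of intron clusters gave 13242 of 18644 (71.0%) and 27 of 2364 (1.14%). In the 940 regions, L2 made up 36.1%, DNA transposons 21.4%, L1 5.64% and LTR 6.38%, and the T content of their clusters was 40.6%. In the 330 regions of all 5 libraries, L1 made up 26.4%, LTR 22.7%, DNA 12.4% and L2 10.3%, with a T content of 30.2%. The shares of L1, L2 and LTR in the common regions were close to those of the slices. The sets were chosen by where reads lay, so these values are a description. Libraries differ in depth, and 3 reads, the limit that a count of 0 allows, correspond to 0.0776, 0.485 and 0.398 RPM in G20, G35 and G45 and to 0.315 and 0.0934 with HuR. The number of groups differed as well, with 2411483 and 4024972 in HuR replicates 1 and 2 against 259337 to 706883 in the slices.

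The leading regions of HuR alone were low compared with the common ones and had conversions near 1 per read. The L2a site in EEF1AKMT2 held 59 and 134 cluster reads in HuR replicates 1 and 2 (6.19 and 4.17 RPM), with 0.831 and 0.925 events per read. The MIRb site in CCDC66 held 33 and 196 reads, with 0.909 and 0.980 events per read. The L2b site in ANAPC7 held 59 and 89 reads, with 0.864 and 0.910, and had 85 reads in Total. The Charlie5 site in JAK1, a kinase of cytokine signalling, held 29 and 229 reads with 1.03 and 1.18 events per read. A MER1B site at chr19:44718969-44719040 (+) in an intron of ZNF227 held 40 and 109 reads with 0.825 and 0.991. These sites were 37 to 72 bases long, and the common sites shown above 21 to 24.

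The leading regions of the slices alone were lower still. A simple repeat at chr6:154963160-154963177 (+) held 64, 9 and 10 reads in G20, G35 and G45, and an L1MEg2 site at chr1:115655225-115655241 (+) 67, 7 and 7. The AluJb site in SLC9B2 held 39, 6 and 5 reads. These 3 had 1.00 to 1.02 events per read in each slice. The MIRc site in MEGF11 held 11, 14 and 12 reads, all with 2.0 events per read, and a MER4-int site at chr2:52356074-52356091 (+) in an intron of ENSG00000231918 11, 6 and 11 reads with 0.545 to 1.00. All of them had 0 reads with HuR and at most 1 read in Total.

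Over single clusters, 81.2%, 53.0% and 68.4% of the repeat clusters of G20, G35 and G45 overlapped a HuR read on the same strand, against 72.6%, 57.6% and 70.0% of other clusters, so that repeats were higher in G20 and lower in G35 and G45. In HuR replicate 1, 1111 repeat clusters (45.3%) overlapped a background read, and in replicate 2 16888 (10.4%) did. Replicate 2 thus had more such clusters and a smaller share. HuR repeat clusters without a background read were 33.4% L2 in replicate 1 and 19.6% in replicate 2, and those with one were 15.3% and 12.4%. Their T content was 38.9% and 38.3% without and 36.2% and 34.8% with a background read, and their G content 13.4% and 15.6% without and 24.1% and 23.8% with one. The antisense share was 3.95% and 10.5% without and 20.8% and 15.8% with a background read. In each of these measures the HuR repeat clusters with a background read were nearer to the slices, in 2 of 2 replicates. They were chosen by overlap with slice reads, so this nearness cannot be separated from the choice. The part of these clusters in the differences between HuR and the slices was not tested.

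Repeat clusters of the slices were found in both other slices in 64.2%, 36.5% and 43.4% of cases in G20, G35 and G45, and other clusters in 44.7%, 33.5% and 40.9%. The mean difference was 8.30 percentage points (exact paired permutation p = 0.25, the smallest that 3 pairs allow, adjusted 0.318). Among clusters with 25 or more reads it was 2.82, and the direction held in G20 only, with 90.1% of repeats against 80.2% of other clusters. In G35 and G45 it turned, with 92.4% and 95.7% of repeats against 93.6% and 96.1%. The share of HuR clusters with a background read was 9.05 percentage points higher in repeats than in other clusters in replicate 1 and differed by -0.0195 in replicate 2, so the replicates did not share a direction. Against intron clusters, repeats overlapped background reads more often in both replicates, with 45.3% and 10.4% against 25.6% and 8.17%. Repeat clusters were also found in Total at a lower share than other clusters in 5 of 5 libraries, at 32.4%, 17.6% and 18.4% in the slices and 59.7% and 24.3% with HuR (mean difference -9.32 percentage points, exact paired permutation p = 0.0625, not among the 14 adjusted tests). Against intergenic clusters the sign turned, to a mean of 3.45 in 5 of 5 libraries (exact paired permutation p = 0.0625).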

How the data were processed

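PAR-CLIP sites of 6 HEK293 libraries were used. The authors removed adapters from single 50 bp reads, aligned them to hg19 using bowtie, and ran PARalyzer, which kept uniquely mapping reads with at most 2 T-to-C mismatches. Reads that fit several places are thus absent, which leaves out recent, near-identical repeat copies. As deposited, the values are unnormalized counts per cluster of reads, conversion locations and conversion events, and removal of PCR duplicates is not given in the sources used here. The tables of PARalyzer clusters also name the element that a repeat cluster lies in. This name gave the families. Only its class was checked, for the clusters that overlapped a Total cluster.

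The sequences of 5000 clusters checked in each library matched GRCh37 at their positions. Base content is the mean over clusters. Genes came from GENCODE release 44 on GRCh37. A cluster was found in another library where it shared 1 or more bases on the same strand with a group of reads there. Group differences were tested with exact two-sided permutation tests over libraries and paired differences with exact sign changes, both tested on simulated data. Intervals are 95% Wilson intervals, and a count of 0 allows up to 3 reads. The slices hold 6187300 to 38644636 reads and HuR 9525265 and 32111810. Python 3.11.15, numpy 2.4.6, pandas 2.3.3, scipy 1.17.1, matplotlib 3.10.9 and samtools 1.23.1 were used.

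Named are, outside chromosome 8, the 3 repeat clusters with most reads in each library, the 5 regions with the highest lowest RPM in all libraries, in the slices alone and in HuR alone, 5 host genes and 5 8-mers per library, some of the genes and 8-mers left out. The members, lists and tests were chosen with earlier results of these data known. Alternatives changed the read minimum, the conversion locations, the strand rule, the overlap, the base content, the genes, the clusters compared with and the replicates. Those for the L1, L2, LTR and DNA shares were added after seeing the data.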

Additional observations from a re-analysis of the deposited data

How the results depend on the processing

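Of the 88 alternative values for 15 results, 81 kept their direction, and none moved a p-value past 0.05, which no design here allowed. The A content difference between HuR and the slices turned from -0.38 to 0.35 percentage points with 2 or more conversion locations, and ranged from -2.82 to 2.06 when 1 HuR replicate was left out. Events per 100 reads, HuR minus slices, ranged from -14.7 to 24.6 when 1 HuR replicate was left out. The share of HuR clusters with a background read, repeat minus other clusters, ranged from -0.0195 to 9.05. Events per 100 reads, repeat minus other, turned from 15.0 to -10.3 against intron and to -9.81 against intergenic clusters, and was 3.92 without the 10 clusters with the most reads. The antisense share, repeat minus other, turned from 12.2 to -30.3 percentage points against intergenic clusters, which the annotation selects for lying outside genes on their strand. The causes of the other turns were not tested. The L2 share, HuR minus slices, was 12.1 percentage points, 4.88 with 25 or more reads and 5.06 without a gene on either strand, and the LTR share was -10.8 and, without a gene on either strand, -2.57. The T content difference stayed between 8.02 and 9.34 and the antisense difference between -32.3 and -24.9. No pairing of HuR with slice libraries was possible because only the HuR libraries carry replicate numbers. With 2 HuR replicates and single slices, library effects and gel position cannot be told apart from the groups.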

Other observations

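Low-complexity and simple repeats differed from the interspersed families. In G20, low-complexity clusters had a median length of 28 bases, 17.8% T and 40.3% G, and simple repeats 19.0% T and 46.5% G. In HuR replicate 2 the T content of the same classes was 52.3% and 49.3%. The AT_rich label alone made up 6.19% of the repeat clusters of HuR replicate 2. TTTTT was in 8.22% of the low-complexity clusters of G20. In G20 both classes were found in both other slices less often than the other families, in 26.0% and 29.8% of clusters against 69.4% of L1 clusters.

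Alu clusters gave the lowest T content of the large families in all 5 libraries, and those in HuR replicate 1 had 41.1 events per 100 reads, against 100.2 in replicate 2. A single AluJr cluster in ADAMTS7 held 7468 reads of replicate 1 with 241 events.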
